A study of Mus musculus with 14 samples.

Results

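The 7 Ripk4 cKO kidney libraries of a 14-library mouse RNA-seq study were taken as one experiment, the response of the mutant kidney to cisplatin. Their labels set the membership: 4 libraries from cisplatin-treated cKO mice and 3 from untreated cKO mice. The comparison and the gene lists were chosen with earlier results of these data known. The study's other 7 libraries come from WT mice, 4 treated with cisplatin and 3 untreated, and enter here only where the 2 genotypes are set side by side. Treated mice received cisplatin into the peritoneum at 15 mg per kg and kidneys were taken 4 days later, when RNA was extracted from kidney tissue lysates. The labels name the mutant only as a conditional knockout of Ripk4, and give neither the Cre driver, the cells in which the gene is deleted, the age, the sex, a batch nor a vehicle injection for the untreated mice. Replicates are numbered in the order of the deposit, and no label says that they are separate animals, so the p-values measure the spread between these libraries only.

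Cisplatin is a platinum drug that binds DNA and forms crosslinks within and between strands. It is taken up and concentrated by the epithelium of the proximal tubule, where the DNA damage stabilizes the transcription factor p53 and injured cells switch on a characteristic set of genes that includes Havcr1 and Lcn2 while losing transporters and metabolic enzymes. RIPK4 is a kinase of the receptor-interacting protein family, best known for its part in the differentiation of the epidermis, and the series' title names it together with Acsm1, which encodes a medium-chain acyl-CoA synthetase of mitochondria.

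The libraries carried 36.7 to 50.5 M reads assigned to genes in the cKO groups, as estimated from the steps between low values of FPKM (read fragments scaled to transcript length and library size), and all 37 proximal tubule transport genes on the list were tested, with summed levels of 7272 to 8727 FPKM in cisplatin libraries and 8227 to 8808 FPKM in untreated libraries. Every cKO library held transcripts of the 4 Y-linked genes examined, among them Ddx3y at 15.0 to 25.1 FPKM, and Xist did not exceed 0.0348 FPKM. Ripk4, the targeted gene, was at 5.32, 5.62, 9.09 and 3.61 FPKM in cisplatin cKO libraries, against 3.68, 3.98 and 4.61 FPKM in untreated cKO libraries. The cisplatin libraries spanned the untreated ones, and the difference of 0.39 on the log2 scale did not pass an exact two-sided permutation test of the library labels (p = 0.229, where 35 arrangements allow no p below 0.0286). Without cisplatin replicate 4 the difference was 0.56 and the exact p was 0.1, the smallest that 20 arrangements allow. A level for the whole gene cannot show the loss of an exon, so these values do not check the deletion.

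The library called cisplatin replicate 4 stood apart from cisplatin replicates 1 to 3, and for that reason each comparison is given with and without it. It had been noticed through Cdkn1a, which encodes the cell cycle inhibitor p21, and through the globins. Cdkn1a was at 127, 167, 97.3 and 3.60 FPKM in cisplatin replicates 1 to 4, against 5.23, 4.07 and 5.86 FPKM in untreated libraries, so that replicate 4 lay below every untreated library. The beta-globin Hbb-bs was at 0.533, 0.0430, 0 and 441 FPKM in cisplatin replicates 1 to 4, against 305, 497 and 655 FPKM in untreated libraries, and here replicate 4 lay inside the untreated range. Over all 15193 genes tested, the library nearest to replicate 4 was untreated replicate 3, at a root-mean-square log2 distance of 0.365. Its mean distance was 0.478 to cisplatin replicates 1 to 3 and 0.411 to the untreated libraries. Among single libraries it was 0.441 from cisplatin replicate 3 and 0.444 from untreated replicate 1. On the first principal component of the 14 libraries, which held 52.9% of the variance, replicate 4 lay at -29.1. This was inside the range of the untreated cKO libraries from -36.5 to -25.2, while cisplatin replicates 1 to 3 lay between -5.58 and 4.14. On the second component, which held 14.5%, cisplatin replicates 1 to 3 lay at -29.4, 4.82 and 0.658. The untreated cKO libraries lay between -3.91 and 16.1 there, and replicate 4 lay at -18.2, below all of them. Whether this library comes from a treated mouse was not tested. Because its omission was prompted by Cdkn1a and the 4 globins, those 5 genes are described without a test of their own. The total of calls and the count of p53 targets called are also given without them, and calls of red cell genes only without them. Other counts, and means and sums over lists, still include them where they are members. Every result without replicate 4 is conditional on that choice.

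The number of genes called depended on that library. Genes were called at an adjusted p under 0.05 in limma, a linear model that pools information on the spread across genes, with the Benjamini-Hochberg adjustment over all 15193 genes. With all 4 cisplatin libraries, 3 genes were called (0.0197% of the genes tested), all of them lower after cisplatin, although 1754 genes had an unadjusted p under 0.05. Without replicate 4, 286 genes were called (1.88%), of which 171 were higher (1.13%) and 115 lower (0.757%), and 149 of them differed at least 2-fold. Leaving out the 5 genes that prompted the omission, 281 of 15188 genes were called, 170 higher and 111 lower. The split between higher and lower calls moved to 127 and 119 under median-of-ratios scaling and to 142 and 137 under quantile normalization.

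Leaving out any other single cKO library from the 7 moved the count less: it was 0 without cisplatin replicate 1, 2 or 3, 0 without untreated replicate 1, 1 without untreated replicate 2 and 32 without untreated replicate 3. Once replicate 4 was out, the 286 calls became 158, 100 and 207 without cisplatin replicates 1, 2 and 3, and 76, 105 and 250 without untreated replicates 1, 2 and 3.

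**Figure D1:**
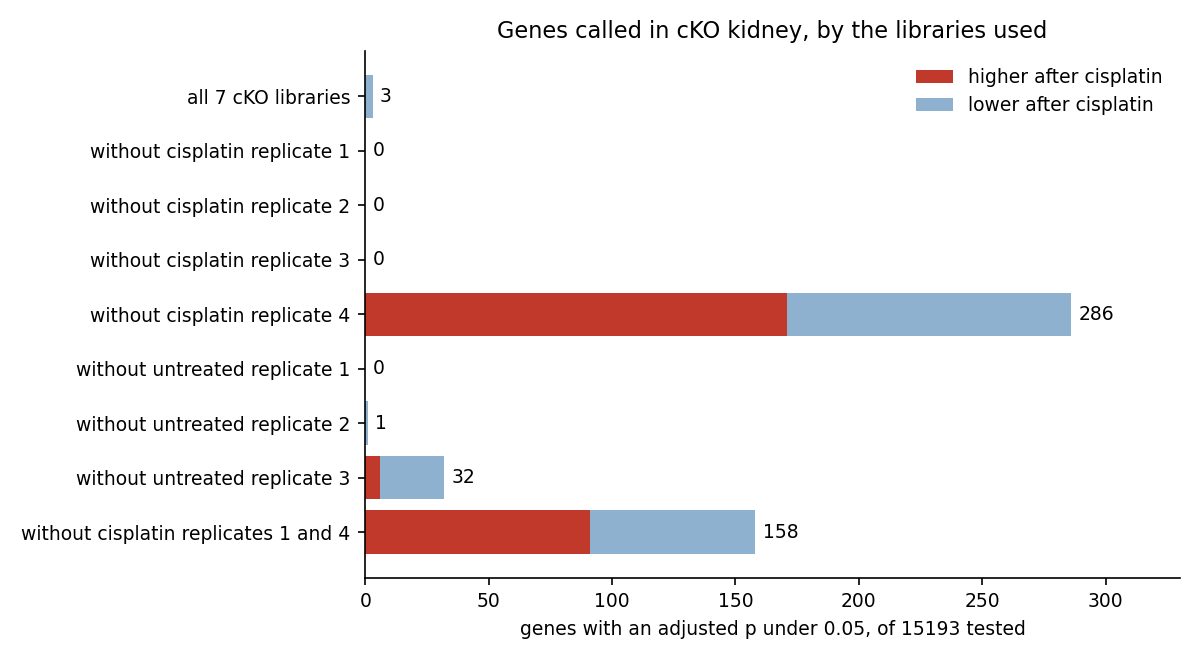
Number of genes with an adjusted p under 0.05 (x axis) for each set of cKO libraries used (y axis), with genes higher after cisplatin in red and genes lower after cisplatin in blue. All 7 libraries gave 3 calls, and leaving out cisplatin replicate 4 gave 286, more than any other omission shown.

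The 3 genes that passed with all 4 cisplatin libraries were ones in which replicate 4 sided with the other treated libraries. Snx31, which encodes a sorting nexin of the endosomal system, was at 10.6, 6.82, 9.60 and 14.3 FPKM in cisplatin libraries, against 49.4, 42.9 and 28.5 FPKM in untreated libraries. The groups did not overlap, and the log2 fold change was -1.87 ± 0.24 (SE, limma, adjusted p = 0.0209). Pi4ka, a phosphatidylinositol 4-kinase whose locus overlaps Snap29 and Tmem191c, was at 84.5, 75.8, 82.8 and 89.3 FPKM in cisplatin libraries, against 140, 137 and 128 FPKM in untreated libraries, a log2 fold change of -0.70 ± 0.10 (SE, limma, adjusted p = 0.0271). Ccdc150, a coiled-coil protein gene, was low everywhere and stood at 0.125 to 0.595 FPKM in cisplatin libraries, against 1.67 to 2.23 FPKM in untreated libraries (log2 fold change -1.07 ± 0.14, SE, limma, adjusted p = 0.0209).

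**Figure D2:**
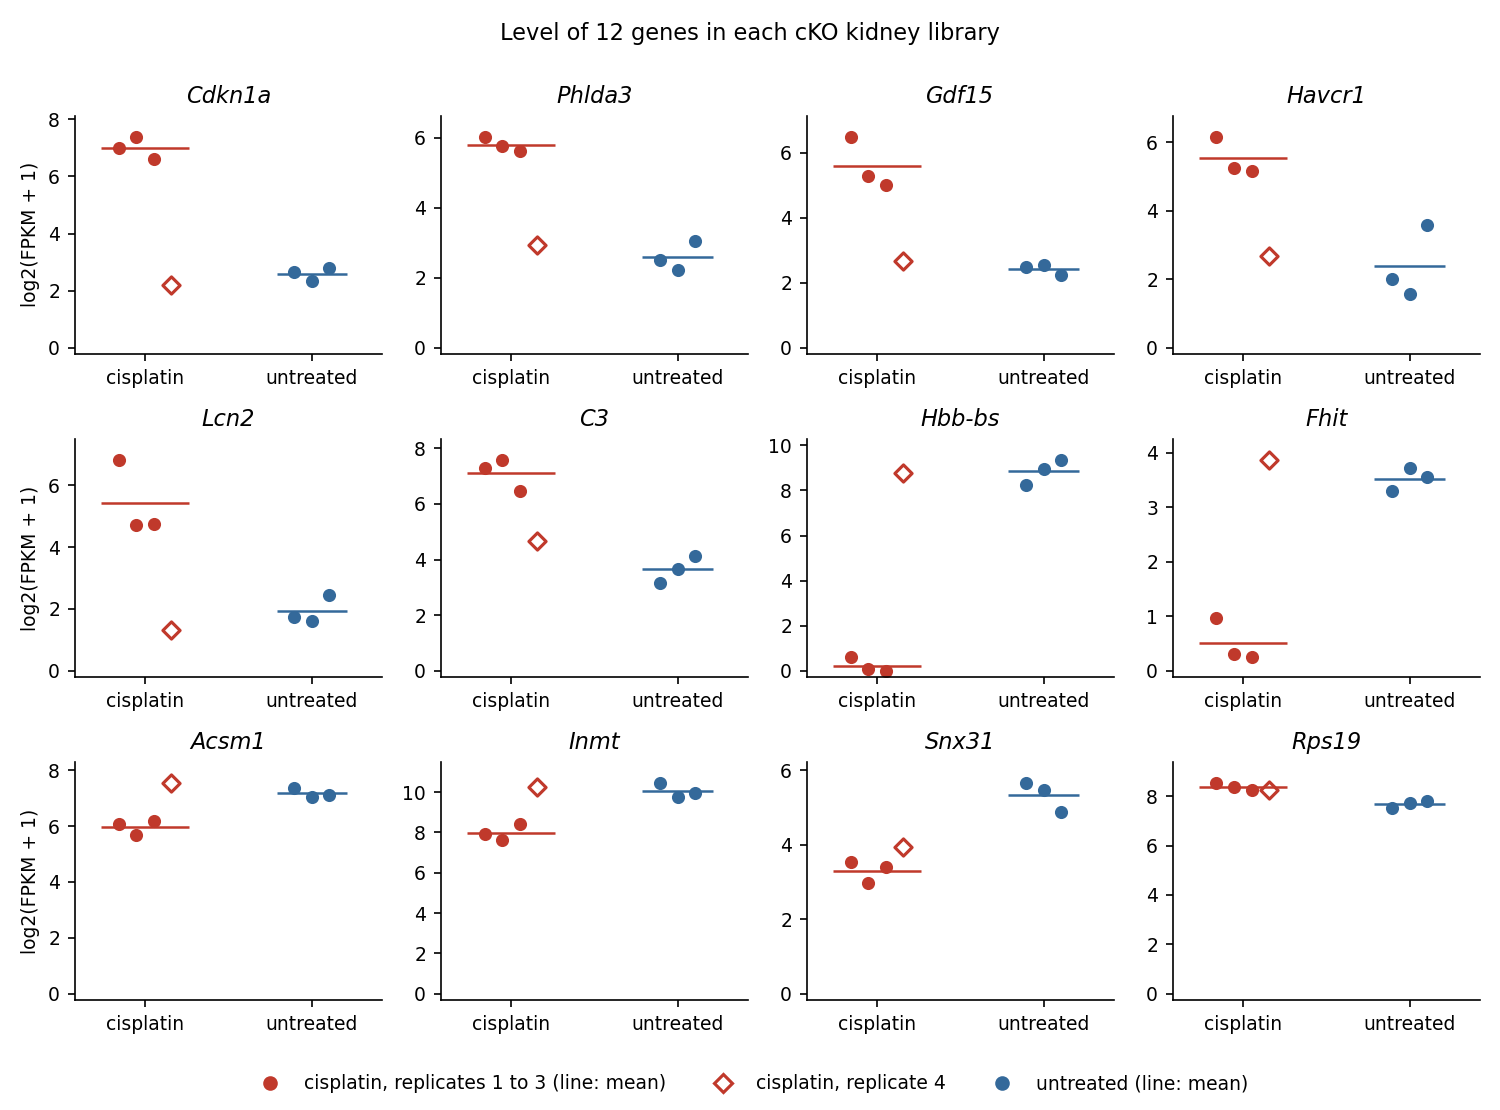
Level of 12 genes as log2(FPKM + 1) (y axis) in each cKO library, cisplatin on the left in red and untreated on the right in blue, with the line at the mean of cisplatin replicates 1 to 3 or of the untreated libraries and cisplatin replicate 4 as an open diamond. Replicate 4 sits near the untreated libraries for Cdkn1a, Phlda3, Gdf15, Hbb-bs and Fhit, and near the treated ones for Rps19.

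Targets of p53 formed the group with the most calls. Of the 30 p53 target genes listed 29 were tested, and 19 of them rose without replicate 4 and none fell, where 1.13% of all genes rose, with a median log2 fold change of 1.13 against 0.043 over all genes. Leaving Cdkn1a aside, 18 of 28 rose with a median of 1.12, and in 24 of 28 cisplatin replicates 1 to 3 all lay above every untreated library, as did 15.6% of all genes. Phlda3, which restrains AKT signalling at the membrane, was at 64.2, 53.2, 47.8 and 6.58 FPKM in cisplatin replicates 1 to 4, against 4.72, 3.64 and 7.25 FPKM in untreated libraries. The first 3 treated libraries did not overlap the untreated ones and replicate 4 lay within them. The log2 fold change without replicate 4 was 3.21 ± 0.20 (SE, limma, adjusted p = 2.25e-06), about 9.24-fold on the log2(FPKM + 1) scale.

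Other p53 targets rose as well without replicate 4. Ccng1, which encodes cyclin G1, was at 442, 386, 419 and 76.6 FPKM in cisplatin libraries, against 116, 97.7 and 119 FPKM in untreated libraries, with replicate 4 below all of the untreated ones (1.90 ± 0.16 on the log2 scale without it, SE, limma, adjusted p = 3.87e-05). Gdf15, a stress-induced cytokine, was at 88.6, 37.7, 31.1 and 5.39 FPKM in cisplatin libraries, against 4.56, 4.85 and 3.69 FPKM in untreated libraries, and rose by 3.17 ± 0.32 without replicate 4 (SE, limma, adjusted p = 0.00026). Among the genes that promote apoptosis, Bax was at 76.3, 55.2, 58.4 and 33.6 FPKM in cisplatin libraries, against 25.6, 27.5 and 31.4 FPKM in untreated libraries, so that even replicate 4 lay above the untreated range (1.13 ± 0.14 without replicate 4, SE, limma, adjusted p = 0.000985). Bbc3, which encodes the BH3-only protein PUMA, was also above that range in replicate 4, at 4.36 FPKM against an untreated maximum of 4.15 FPKM, and rose by 1.76 without it. Among the regulators, Mdm2, the ubiquitin ligase that turns p53 over, was at 79.1, 66.9, 58.6 and 22.8 FPKM in cisplatin libraries, against 27.8, 29.8 and 27.1 FPKM in untreated libraries, and rose by 1.23 ± 0.21 without replicate 4 (SE, limma, adjusted p = 0.0114). The nuclease gene Aen, the kinase gene Plk3, the spindle protein gene Psrc1 and the G2/S phase gene Gtse1 rose by 1.60, 1.90, 2.64 and 1.08. As a mean over the list, the level was 4.56, 4.44, 4.36 and 3.01 log2(FPKM + 1) in cisplatin replicates 1 to 4, against 3.17, 3.13 and 3.23 in untreated libraries, which puts replicate 4 below the untreated ones. This mean includes Cdkn1a, which prompted the omission of replicate 4, so that position rests in part on Cdkn1a. The count of 19 was 11 without untreated replicate 1, 12 without untreated replicate 2 and 13 to 15 without any other further cKO library. No p53 target passed with all 4 cisplatin libraries, where the median was 0.78.

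Part of the promoter of 3 of these genes is printed because each holds a match to the p53 response element, in capitals. The element was searched as a pair of 10-base half-sites with up to 2 mismatches in all and 0 or 1 bases between them, from 250 bases before to 50 bases after the RefSeq transcription start in GRCm38.p6 (mm10). It reads the same on both strands, so a single orientation covers them.
Cdkn1a, chr17:29090888-29090978, plus strand: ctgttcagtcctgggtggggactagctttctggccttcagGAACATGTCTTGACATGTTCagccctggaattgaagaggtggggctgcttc
Ccng1, chr11:40755431-40755521, minus strand: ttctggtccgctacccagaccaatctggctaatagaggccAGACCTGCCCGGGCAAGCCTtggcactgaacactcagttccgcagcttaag
Bax, chr7:45467048-45467139, minus strand: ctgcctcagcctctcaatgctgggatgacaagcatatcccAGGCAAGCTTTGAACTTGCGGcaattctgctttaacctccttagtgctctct
The Cdkn1a match lies from -51 to -32 and the Ccng1 match from -195 to -176 relative to the start, each with 1 mismatch, and the Bax match from -201 to -181 with 1 base between the half-sites and 2 mismatches.

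Such a match was present in 218 of 27025 genes with a promoter in the RefSeq table (0.807%) and in 91 of the 10537 tested genes that have one (0.864%). It was present in 4 of the 21 tested p53 targets with a promoter, namely Bax, Ccng1, Cdkn1a and Gtse1, which were placed on the list as known targets. Of the 128 genes higher after cisplatin without replicate 4 that have a promoter in the table, 9 held a match (7.03%), among them, beside those 4, Cldn16, Rps19 and Rps27l. None of the 77 lower genes with a promoter and none of the 21 tubular injury genes with one held it. A match of letters is a description and does not show that p53 binds there.

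Tubular injury genes rose in fewer numbers. Without replicate 4, 8 of the 29 tested (of 30 listed) rose and none fell, with a median log2 fold change of 0.67, and in 17 of 29 cisplatin replicates 1 to 3 lay above all untreated libraries. Over all genes these shares were 1.13% and 15.6%. Lcn2, the iron-siderophore carrier NGAL released by injured tubules, was at 112, 25.3, 26 and 1.5 FPKM in cisplatin replicates 1 to 4, against 2.35, 2.02 and 4.44 FPKM in untreated libraries. Replicate 1 was the highest by a wide margin and replicate 4 was below every untreated library, and the log2 fold change without replicate 4 was 3.50 ± 0.48 (SE, limma, adjusted p = 0.0024). Havcr1, the gene of kidney injury molecule 1, was at 70.8, 37.1, 35.2 and 5.38 FPKM in cisplatin libraries, against 2.99, 1.97 and 11 FPKM in untreated libraries, and rose by 3.15 ± 0.53 (SE, limma, adjusted p = 0.0115). Untreated replicate 3 was the highest of the untreated libraries for Havcr1, and replicate 4 lay within them. Spp1, the secreted phosphoprotein osteopontin, whose locus overlaps the gene model Gm42793, was at 2902, 1351, 1602 and 380 FPKM in cisplatin libraries, against 286, 352 and 433 FPKM in untreated libraries, and rose by 2.39 ± 0.27 (SE, limma, adjusted p = 0.000681).

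The other 5 called injury genes were Clu, Tnfrsf12a, S100a10, Krt20 and Lgals3, which encode clusterin, the TWEAK receptor, an annexin A2 partner, an epithelial keratin and galectin 3. They rose by 1.48, 1.80, 1.05, 1.81 and 1.1. Only S100a10 among these had replicate 4 above all untreated libraries, at 271, 186, 151 and 147 FPKM in cisplatin libraries and 85.7, 90.7 and 108 FPKM in untreated libraries. Timp1, an inhibitor of matrix proteases, missed the threshold at a log2 fold change of 1.93 (limma, adjusted p = 0.0512). Sox9, a transcription factor of regenerating tubules, was at 2.14, 0.761, 0.846 and 0.180 FPKM in cisplatin libraries and 0.169 to 0.203 FPKM in untreated libraries. Cisplatin replicates 1 to 3 lay above all untreated libraries and replicate 4 within them, but Sox9 did not pass (limma, adjusted p = 0.235). The log2(FPKM + 1) scale understates changes at such low levels. The count of 8 was 2 without untreated replicate 1, 3 without untreated replicate 2 and 6 to 9 without any other further cKO library.

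Complement and fibrinogen genes included some of the largest rises. Of 17 genes, 5 rose without replicate 4 and none fell, where 1.13% of all genes rose, with a median of 0.36. C3, the central complement component, was at 157, 191, 87.8 and 24.4 FPKM in cisplatin libraries, against 7.94, 11.7 and 16.4 FPKM in untreated libraries. All 4 treated libraries exceeded all untreated ones, replicate 4 by the least, and the log2 fold change was 3.47 ± 0.37 without replicate 4 (SE, limma, adjusted p = 0.000447) and 2.86 with it (adjusted p = 0.0830). The fibrinogen alpha chain gene Fga was at 70.5, 50.3, 24.5 and 9.26 FPKM in cisplatin libraries, against 7.17, 6.86 and 8.21 FPKM in untreated libraries, again with no overlap, and rose by 2.44 without replicate 4. The gamma and beta chain genes Fgg and Fgb rose by 2.70 and 1.41, Fgb from a low level of at most 0.0571 FPKM in untreated libraries, and Fgg overlaps the gene model Gm30097. C4b, a component of the classical pathway, rose by 1.68. The count of 5 was 3 without untreated replicate 1, untreated replicate 2 or cisplatin replicate 2, and 4 or 5 without any other further cKO library.

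Signalling and stress lists held fewer calls each, although their median changes were not smaller than that of the complement and fibrinogen list. Across all genes 1.13% rose and 15.6% had cisplatin replicates 1 to 3 above all untreated libraries. Among 33 inflammatory cytokines and NF-kB targets, 3 rose without replicate 4 and none fell (median 0.51), and 19 had cisplatin replicates 1 to 3 above all untreated libraries. The 3 were Lif, an interleukin-6 family cytokine, Socs3, a feedback inhibitor of cytokine signalling, and the neutrophil chemokine Cxcl1, at log2 fold changes of 1.80, 1.79 and 1.91. Lif was at 6.78, 2.37, 1.32 and 0.236 FPKM in cisplatin libraries, against 0.115, 0.158 and 0.105 FPKM in untreated libraries, so the groups did not overlap even with replicate 4 included. The count of 3 was 0 without untreated replicate 1 or 2, 1 without untreated replicate 3 or cisplatin replicate 2, and 2 without cisplatin replicate 1 or 3. Of 25 genes of the endoplasmic reticulum and integrated stress responses, 2 rose, the neurotrophic factor gene Manf by 0.77 and Sesn2 by 0.99 (median 0.45, 17 above). Of 18 immediate-early genes, 2 rose, the mRNA decay factor gene Zfp36 by 0.78 and Ier5 by 1.18 (median 0.69, 12 above). Manf and Zfp36 overlap other gene models. Of 25 NRF2 targets 1 rose, the epoxide hydrolase gene Ephx1, at 191, 159, 160 and 54.4 FPKM in cisplatin libraries, against 45.0, 44.1 and 71.0 FPKM in untreated libraries, a log2 fold change of 1.68 ± 0.20 (SE, limma, adjusted p = 0.000985). The quinone reductase gene Nqo1 was above the untreated range in all 4 cisplatin libraries, at 59.9, 54.9, 44.8 and 38.6 FPKM against 27.6, 23.1 and 26.4 FPKM, and did not pass (1.01 without replicate 4, limma, adjusted p = 0.123).

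Cell death genes gave few calls. Of 24 genes of the death machinery 2 rose, where 1.13% of all genes did, the anti-apoptotic gene Bcl2l1 by 0.62 ± 0.09 (SE, limma, adjusted p = 0.00249) and Tnfrsf1a, which encodes TNF receptor 1, by 0.64 ± 0.14 (SE, limma, adjusted p = 0.0383). Bcl2l1 was at 122, 118, 111 and 91.0 FPKM in cisplatin libraries, against 73.5, 78.6 and 75.3 FPKM in untreated libraries, with no overlap. None of 23 ferroptosis suppressors and none of 22 ferroptosis promoters and markers was called in limma with or without replicate 4, and their medians were 0.19 and 0.07 without it. Gpx4, the peroxidase that reduces lipid hydroperoxides, was at 1398, 909, 1024 and 1269 FPKM in cisplatin libraries, against 857, 885 and 996 FPKM in untreated libraries, and the groups overlapped (0.26 without replicate 4, limma, adjusted p = 0.714). Acsl4, which loads membranes with polyunsaturated lipids, was at 15.7, 17.1, 15.3 and 8.90 FPKM in cisplatin libraries, against 9.50, 10.8 and 10.2 FPKM in untreated libraries (0.61, limma, adjusted p = 0.206). Slc7a11, the cystine transporter, lay below the filter, at no more than 0.0868 FPKM in any cKO library.

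Acyl-CoA synthetases of the Acsm family, which activate medium-chain fatty acids in mitochondria, fell together once replicate 4 was left out. Of 5 members listed 4 were tested, and without replicate 4 all 4 passed, where 0.757% of all genes fell, with a median of -1.16. Acsm1 was at 66.9, 49.9, 71.1 and 185 FPKM in cisplatin replicates 1 to 4, against 165, 129 and 137 FPKM in untreated libraries. Replicates 1 to 3 lay below all untreated libraries and replicate 4 above all of them, and the log2 fold change was -1.20 ± 0.15 without replicate 4 (SE, limma, adjusted p = 0.0013) and -0.81 with it (adjusted p = 0.325). Acsm2, the most abundant member, was at 2104, 1838, 2590 and 3294 FPKM in cisplatin libraries, against 5481, 4531 and 4101 FPKM in untreated libraries, and here replicate 4 stayed below the untreated range (-1.11 ± 0.23 without it, SE, limma, adjusted p = 0.0324). Acsm3 and Acsm5 fell by 1.77 and 0.85. Acsm1, Acsm3 and Acsm5 overlap other gene models, and the strandedness of the counting is not given in the sources used here, so their reads may be shared. The count of 4 was 1 without untreated replicate 1 or without cisplatin replicate 2, and 3 or 4 without any other further library.

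Few genes of other proximal tubule functions were called. Over all genes 1.13% rose and 0.757% fell without replicate 4, so a single call in a list of this size is close to that background. Of 37 transport genes 1 rose and 1 fell without replicate 4: the sulfate transporter gene Slc13a1 was at 276, 173, 216 and 109 FPKM in cisplatin libraries, against 100, 99.6 and 119 FPKM in untreated libraries (1.03), and the organic anion transporter gene Slco1a1 was at 56.2, 28.8, 49.3 and 72.7 FPKM in cisplatin libraries, against 327, 180 and 118 FPKM in untreated libraries (-2.12). For Slco1a1 all 4 cisplatin libraries were below all untreated ones, as they were for 5.03% of all genes. Of 30 metabolic enzyme genes 1 fell, the cytochrome P450 gene Cyp4b1 (-0.94). None of 35 fatty acid oxidation genes, 35 genes of the respiratory chain and tricarboxylic acid cycle and 13 mitochondrially encoded genes was called without replicate 4. Of 10 genes with male-biased kidney expression 3 fell, Slco1a1, Acsm3 and Cyp4b1, which are counted above as well, and 8 had cisplatin replicates 1 to 3 below all untreated libraries (8.04% of all genes did, median of the list -0.99). The count of 3 was 0 without untreated replicate 1 or cisplatin replicate 2, 1 without untreated replicate 2, and 3 or 4 without any other further cKO library. Of 8 genes with female-biased kidney expression none rose and 1 fell, Acsm2, while the median of the list was 0.80. All 4 cisplatin libraries lay above all untreated ones in 3 of these 8 and below in 1. The median departure of replicate 4 from the untreated mean was 0.77. Further along the nephron, 3 of 23 genes of the thick ascending limb and distal tubule passed: Pvalb, a calcium-binding protein of the distal convoluted tubule, and the FGF23 co-receptor gene Kl fell by 1.24 and 0.60, and Cldn16, the claudin of magnesium reabsorption, rose by 0.89. Of 16 clock genes, the repressor gene Nr1d1 fell by 1.81 and Per1 rose by 0.88, and Nr1d1 overlaps Thra. Selenop, the plasma selenoprotein, was the 1 gene of 23 on the antioxidant enzyme list that passed, and fell by 0.84.

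Large changes were also found outside these groups. Ces2e, a gene of the carboxylesterases that hydrolyse drugs and lipids, was at 83.9, 61.1, 50.5 and 7.46 FPKM in cisplatin libraries, against 5.18, 4.39 and 7.93 FPKM in untreated libraries. Replicates 1 to 3 did not overlap the untreated libraries, replicate 4 lay within them, and the log2 fold change without it was 3.28 ± 0.22 (SE, limma, adjusted p = 5.4e-06). Cox6b2, a cytochrome c oxidase subunit best known from testis, rose by 2.33. Inmt, an N-methyltransferase of indoleamines, was at 238, 193, 341 and 1203 FPKM in cisplatin libraries, against 1400, 873 and 989 FPKM in untreated libraries, and fell by 2.09 ± 0.38 without replicate 4 (SE, limma, adjusted p = 0.0177), which again lay within the untreated range. Pzp, an alpha-2-macroglobulin family protease inhibitor, was at 37.1, 10.3, 21.5 and 32.4 FPKM in cisplatin libraries, against 157, 128 and 90.9 FPKM in untreated libraries, with all 4 treated libraries below the untreated ones (-2.53 without replicate 4, limma, adjusted p = 0.0257). Ctxn3, which encodes cortexin 3, was lowest of all in replicate 4, at 0.0434 FPKM, and fell by 2.08 without it.

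**Figure D3:**
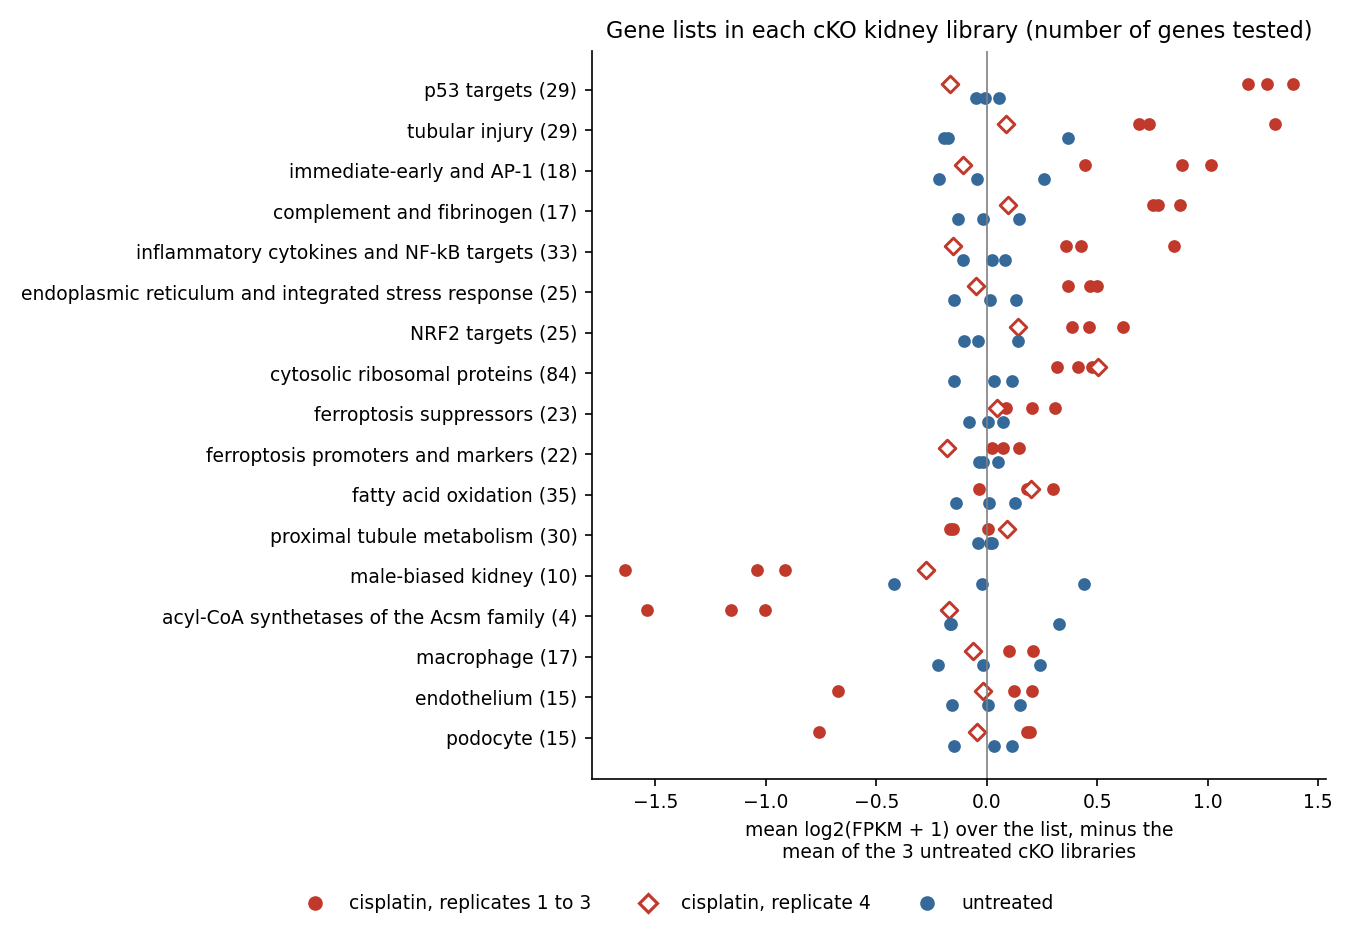
Mean log2(FPKM + 1) over each gene list, minus the mean of the 3 untreated cKO libraries (x axis), for each library, with cisplatin in red above untreated in blue and cisplatin replicate 4 as an open diamond. The number of genes tested is beside each name. Replicate 4 lies near the untreated libraries for p53 targets, a list that includes Cdkn1a, and for tubular injury. It lies near the other treated ones for ribosomal proteins.

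Several of the strongest falls were in genes that span very long stretches of the genome. Fhit, a diadenosine triphosphatase gene at chr14:9550092-11162035 (mm10), was at 0.963, 0.233, 0.186 and 13.6 FPKM in cisplatin replicates 1 to 4, against 8.89, 12.2 and 10.7 FPKM in untreated libraries. Replicates 1 to 3 were far below and replicate 4 above every untreated library, and the log2 fold change without replicate 4 was -3.02 ± 0.18 (SE, limma, adjusted p = 2.21e-06). Immp2l, a mitochondrial inner membrane peptidase gene, was at 0.202, 0, 0.343 and 6.88 FPKM in cisplatin libraries, against 6.32, 4.83 and 6.51 FPKM in untreated libraries (-2.54 ± 0.16, SE, limma, adjusted p = 2.21e-06). The ubiquitin ligase gene Park2 and the oxidoreductase gene Wwox fell by 1.68 and 1.42, Naaladl2 by 1.63, Anks1b by 1.89 and Macrod2 by 0.80, while Nrg1, which encodes the growth factor neuregulin 1, rose by 1.5. Naaladl2, Macrod2 and Nrg1 overlap other gene models, so their reads may be shared.

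By span from the first to the last base of a gene in the GENCODE annotation of GRCm38, the median log2 fold change without replicate 4 was 0.085 for 3011 genes under 5 kb and 0.103 for 1892 genes of 5 to 10 kb. It was 0.065 for 4572 genes of 10 to 30 kb, 0.008 for 3940 genes of 30 to 100 kb and -0.032 for 1437 genes of 100 to 300 kb. For 290 genes of 300 kb to 1 Mb it was -0.166, with 2 higher (0.690%) and 19 lower calls (6.55%). For 26 genes over 1 Mb it was -0.319, with 1 higher (3.85%) and 5 lower (19.2%). In the shorter classes 0.696% to 1.69% of genes were called higher and 0.264% to 0.974% lower. Over all genes 1.13% were higher and 0.757% lower. The trend with span was not equal among libraries. For the 26 longest genes the median departure from the untreated mean was -0.575, -0.171, -0.152 and -0.242 in cisplatin replicates 1 to 4, so that replicate 1 had the steepest trend and replicate 4, which did not share the falls of Fhit or Immp2l, departed as well. Untreated libraries lay between -0.115 and 0.077 there. Departures also varied with exonic length. For genes with 1 to 2 kb of exons the median was 0.175, 0.056, 0.071 and 0.144 in cisplatin replicates 1 to 4. For genes with over 8 kb it was -0.159, 0.136, 0.003 and -0.205. The parts of RNA quality and exonic length in the trend with span were not tested.

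**Figure D4:**
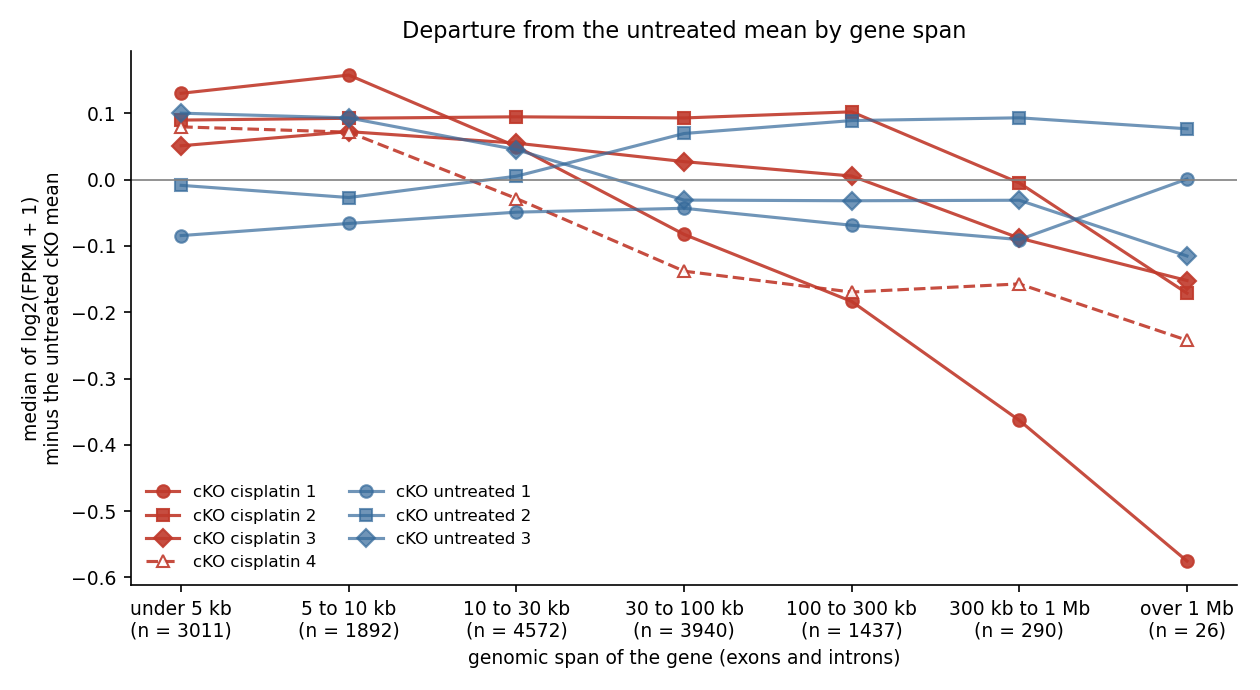
Median over genes of log2(FPKM + 1) minus the untreated cKO mean (y axis) in classes of genomic span (x axis, with the number of genes), 1 line per cKO library, cisplatin in red and untreated in blue. Cisplatin replicate 1 falls to -0.575 for genes over 1 Mb, and the other cisplatin libraries lie between -0.242 and -0.152.

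Red blood cell transcripts differed between the groups of libraries as well. Of 8 red cell genes tested 4 are the globins that prompted the omission of replicate 4. Of the remaining 4, 2 were lower without that library, where 0.757% of all genes were, and the median of the 4 was -0.82. Among those lower was Alas2, the erythroid heme synthesis enzyme, whose gene overlaps Apex2 and which was at 0.219, 0.111, 0.0508 and 7 FPKM in cisplatin libraries, against 5.18, 8.07 and 8.96 FPKM in untreated libraries. The summed level of the list was 76.0, 69.0, 74.9 and 858 FPKM in cisplatin replicates 1 to 4, against 609, 918 and 1228 FPKM in untreated libraries. That sum includes the 4 globins, so it is not separate from the values that prompted the omission. Hbb-bs was at 0 in cisplatin replicate 3, and Hbb-bt and Hba-a2 at 0 in cisplatin replicates 2 and 3. The globins Hba-a1 and Hba-a2, and likewise Hbb-bs and Hbb-bt, are near-identical copies whose reads may be split arbitrarily, and in whole kidney fewer cells of a type and less RNA per cell cannot be told apart.

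In cytosolic ribosomal protein genes replicate 4 followed the other treated libraries. The list was added after values had been seen. Of 84 genes 5 rose without replicate 4, and 69 had cisplatin replicates 1 to 3 above all untreated libraries, also when replicate 4 was counted with them (7.17% of all genes did so with all 4). The median was 0.44 without replicate 4 and 0.46 with it. Rps19 was at 369, 330, 300.03 and 302 FPKM in cisplatin libraries, against 180, 209 and 223 FPKM in untreated libraries, a log2 fold change of 0.71 ± 0.14 (SE, limma, adjusted p = 0.0305). The other called members were Rps27l, Rpl36a, Rpl11 and Rps4x, at 0.82, 0.60, 0.52 and 0.51. Ribosomal protein genes have many processed pseudogenes, so reads may be shared among copies. The part of the departures with exonic length, given above, in the levels of these genes was not tested. Over all genes 1.13% rose. The count of 5 was 0 without untreated replicate 1, untreated replicate 2 or cisplatin replicate 1, 1 and 2 without cisplatin replicates 2 and 3, and 7 without untreated replicate 3, and it was 0 under median-of-ratios scaling and 10 under quantile normalization.

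Across the 171 genes that rose without replicate 4, that library lay within the untreated range for 69 and beyond it in the same direction for 71, with a median departure from the untreated mean of 0.12 against a median fold change of 1.04 in cisplatin replicates 1 to 3. Across the 115 genes that fell, it lay within the range for 35 and beyond it in the same direction for 72, with a median of -0.32 against -0.95. Over all genes it lay within the range for 37.1%, above it for 24.7% and below it for 38.2%, and within the range of cisplatin replicates 1 to 3 for 42.4%. Markers of endothelium and podocytes were low in cisplatin replicate 1: the summed endothelial level was 268, 473, 445 and 403 FPKM in cisplatin libraries, against 349, 406 and 439 FPKM in untreated libraries, and the podocyte level was 148, 302, 274 and 230 FPKM, against 212, 234.5 and 259 FPKM. None of the 15 endothelial or 15 podocyte genes was called, and the part of these cells in the other results was not tested. None of 17 macrophage, 4 neutrophil, 9 lymphocyte, 13 fibroblast and pericyte and 18 collecting duct genes was called without replicate 4. Only 4 of 13 neutrophil and 9 of 15 lymphocyte genes listed passed the filter. Nor was any of 25 interferon-stimulated, 27 matrix, 27 cell cycle, 23 DNA repair and 15 heat shock genes. Over all genes 1.88% were called, so the absence of calls in a list of this size is close to that background. The summed lymphocyte level was 119 FPKM in untreated replicate 3, against 11.6 to 17.6 FPKM in the other cKO libraries.

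The responses of cKO and WT kidneys share no libraries, and their difference was tested as an interaction in the same fit. With all libraries the difference passed for 617 genes (4.06%), 214 with a higher response in cKO (1.41%) and 403 with a lower one (2.65%). Without cKO cisplatin replicate 4 it passed for 331 genes (2.18%), 127 higher (0.836%) and 204 lower (1.34%). A single library moved these counts widely. With all libraries the count was 319, 184 and 98 without cKO untreated replicates 1 to 3, 263 and 331 without cKO cisplatin replicates 3 and 4, 228, 85 and 94 without WT untreated replicates 1 to 3, and 2242, 408 and 323 without WT cisplatin replicates 1, 3 and 4. Without cKO cisplatin replicate 4 the count was 119, 86 and 24 without cKO untreated replicates 1 to 3, 58 and 18 without cKO cisplatin replicates 2 and 3, 92, 25 and 13 without WT untreated replicates 1 to 3, and 1756 and 168 without WT cisplatin replicates 1 and 4.

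Most genes called in cKO without replicate 4 were also called in WT in the same direction: 267 genes, which are 93.4% of the 286 cKO calls and 5.10% of the 5238 WT calls in the same fit (34.5% of genes tested). A further 2 were called in opposite directions and 17 were not called in WT, and for none of these 17 did the difference itself pass. The fit of all libraries called 5224 genes in WT (34.4%), which were thus chosen by the WT change. Those higher in WT had medians of 0.276, 0.211, 0.174 and 0.048 in cKO cisplatin replicates 1 to 4, against 0.671 for the WT response. Each untreated cKO library, set against the other untreated ones, had a median of -0.105, 0.004 or 0.096 for these genes, so replicate 4 lay inside the untreated range. Those lower in WT had medians of -0.291, -0.199, -0.177 and -0.117 in cKO cisplatin replicates 1 to 4, against -0.711 for the WT response, and the untreated cKO libraries lay between -0.039 and 0.037.

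Among tubular injury genes the difference passed more often than over all genes. Without cKO cisplatin replicate 4 the difference was negative for 29 of 29 and passed for 14, where it passed in that direction for 1.34% of all genes, with a median of -1.97. Krt20 reached 7.57, 2.97, 1.99 and 0.0995 FPKM in cKO cisplatin libraries, against 63.0 to 151 FPKM in WT cisplatin libraries. The difference of the responses, cKO minus WT, was -4.50 (limma, adjusted p = 0.00922) without replicate 4 and -5.02 with it. For Havcr1, cKO cisplatin replicates 1 to 3 reached 35.2 to 70.8 FPKM and the WT cisplatin libraries 370 to 1116 FPKM, and the difference was -3.42 (limma, adjusted p = 0.0363). The count of 14 was 1 without cKO untreated replicate 3, cKO cisplatin replicate 3, WT untreated replicate 2 or WT untreated replicate 3, 3 without cKO cisplatin replicate 2, 6 to 9 without cKO untreated replicate 1 or 2, WT untreated replicate 1 or WT cisplatin replicate 4, and 13 to 23 without any other further library. For p53 targets the difference was negative for 25 of 29 but passed for 2, with a median of -0.53. That count was 13 without WT cisplatin replicate 1, 6 without cKO cisplatin replicate 1, and 0 to 3 without any other further library, and for Phlda3 and Bax the difference did not pass.

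Several genes that fell in WT fell less in cKO by the test of the difference. Inmt was at 193 to 1203 FPKM in cKO cisplatin libraries, against 7.53 to 32.6 FPKM in WT cisplatin libraries, a difference of 3.96 without cKO cisplatin replicate 4 (limma, adjusted p = 0.0135). The thiazide-sensitive cotransporter gene Slc12a3 was at 132, 278, 263 and 246 FPKM in cKO cisplatin libraries, against 10.9 to 57.3 FPKM in WT cisplatin libraries, and the difference was 3.02 (limma, adjusted p = 0.0396). Of the Acsm genes, Acsm1, Acsm2 and Acsm5 differed by 0.93, 2.0 and 1.59, where the difference passed in that direction for 0.836% of all genes. For Acsm3 the difference did not pass (1.23, limma, adjusted p = 0.15). The count of 3 was 1 without cKO untreated replicate 3, cKO cisplatin replicate 3, WT untreated replicate 2 or WT untreated replicate 3, and 2 or 3 without any other further library. For Acsm1 the difference did not pass with all libraries (1.32, limma, adjusted p = 0.109). The difference was 0.25 for Fhit and 0.08 for C4b and passed for neither.

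**Figure D5:**
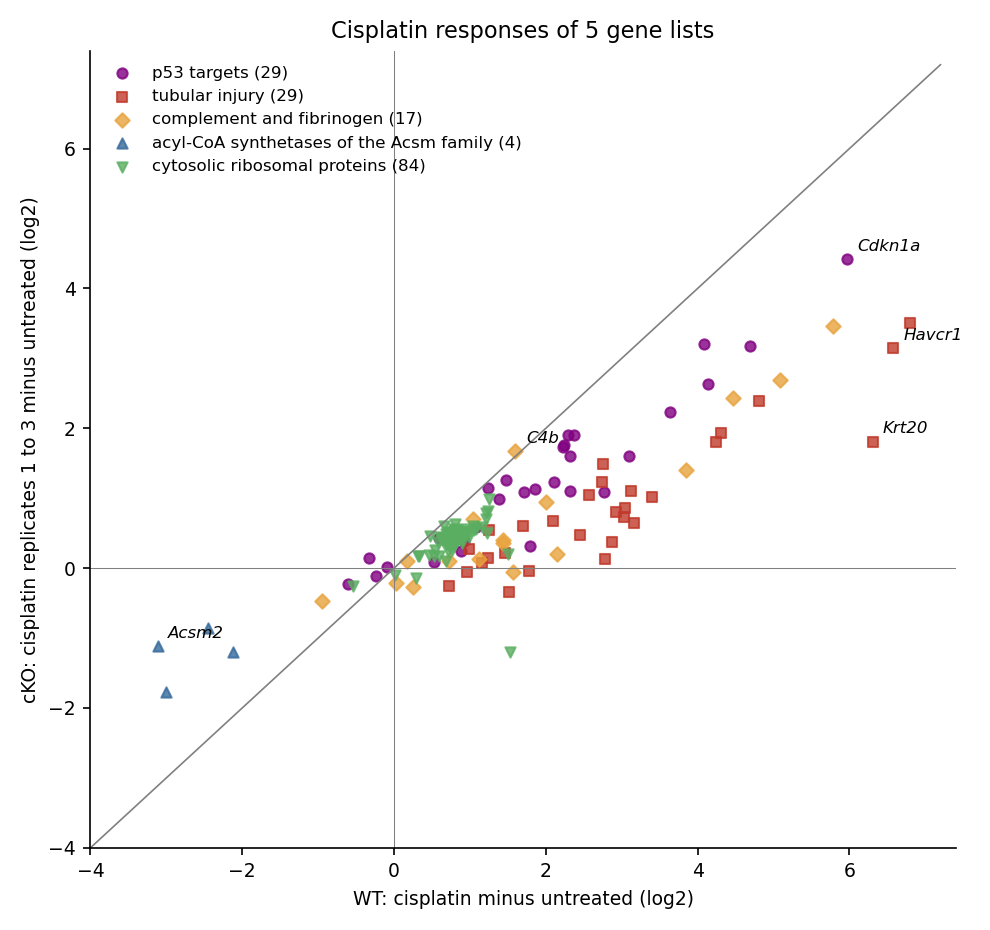
Cisplatin minus untreated on the log2 scale in cKO without cisplatin replicate 4 (y axis) and in WT (x axis) for the tested genes of 5 lists, with the line of equal response. Tubular injury genes such as Havcr1 and Krt20 lie well below the line, the Acsm genes lie above it, and C4b lies close to it.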

How the data were processed

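Whole-kidney RNA was sequenced from 14 libraries prepared with the Illumina TruSeq kit, per the labels' protocols. Reads were aligned to mm10 with HISAT2 2.0.5, per the submitters' processing notes, and the authors deposited FPKM per gene for all libraries. The counting tool, its strand setting and the annotation are not given in the sources used here. FPKM are not counts, so values were taken as log2(FPKM + 1) and genes averaging 0.5 FPKM or more across the 14 libraries entered the tests (15193 kept, 34391 removed). limma 3.58.1 in R 4.3.3 fitted a mean for each of the 4 groups, with a trended prior and Benjamini-Hochberg adjustment over all genes kept. The 4 groups share 1 estimate of the spread. The fit without cKO cisplatin replicate 4 used the other 13 libraries. A fold change on this scale understates the change of low genes. The fits were tested on simulated data. The comparison, its members and the gene lists were chosen with earlier results of these data known. Genes named are Ripk4, Acsm1, Cdkn1a and the globins, the 12 largest rises and falls among called genes averaging 1 FPKM or more with no overlap, up to 4 members of each list with the smallest p plus those that define it, and the 6 largest differences of response in each direction. Genes over 1 Mb, genes with a p53 element and the genes beyond 4 on a list were chosen after their values were seen. Alternatives were another pseudocount, other filters, median-of-ratios and quantile scaling, array weights, a robust prior, a fit of the cKO libraries alone and the omission of each library in turn. The result of 1 gene is not reported here.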

Additional observations from a re-analysis of the deposited data

Results flagged for a closer look

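In 12 of 87 genes looked at, cisplatin replicate 4 lay farther from its nearest neighbour among the 4 cKO cisplatin libraries than Dixon's critical value for 4 samples allows, where the value given is that gap divided by the range, on the log2(FPKM + 1) scale. The 5 genes that prompted the omission of that library were not examined. Chance flags about 1 group in 20, but most of these genes are named because replicates 1 to 3 differed from the untreated libraries once replicate 4 was left out, so that rate does not hold for them and the values are a description. Replicate 4 was the lowest, with a value of 0.87 for Phlda3, 0.92 for Ccng1, 0.95 for Aen, 0.84 for Manf, 0.85 for Ephx1 and 0.84 for Cox6b2. It was the highest, with 0.93 for Alas2, 0.86 for Immp2l, 0.90 for Park2, 0.94 for Wwox, 0.83 for Naaladl2 and 0.86 for Anks1b. In 2 further genes another library stood apart, replicate 3 as the highest for Tfrc, the transferrin receptor gene (0.91), and replicate 1 as the lowest for Slc12a3 (0.84).

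The response to cisplatin differed between cKO and WT, by an interaction term in limma at an adjusted p under 0.05, in the following genes. Values are the cKO response minus the WT response on the log2(FPKM + 1) scale, without cKO cisplatin replicate 4. Lower and higher, here and in the next paragraph, describe that response and not the level. Lower in cKO were the injury genes Krt20 (-4.50), Havcr1 (-3.42), Lcn2 (-3.29), Tnfrsf12a (-2.45), Spp1 (-2.43), Sox9 (-2.18), Lgals3 (-2.03) and S100a10 (-1.52), and the complement and fibrinogen genes Fgb (-2.44), Fgg (-2.38), C3 (-2.31) and Fga (-2.04). Also lower were Serpina10 (-2.93), Sprr2g (-2.90), Akr1b8 (-2.88), Gtse1 (-1.69), Nrg1 (-1.68), Ces2e (-1.43), Tnfrsf1a (-1.02) and Bcl2l1 (-0.61). Higher in cKO were Inmt (3.96), Slc12a3 (3.02), Ces1e (2.39), Pvalb (2.29), Car14 (2.18), Slc22a22 (2.13), Acsm2 (2.0), Acsm5 (1.59), Cyp4b1 (1.45), Kl (1.37), Macrod2 (1.36) and Acsm1 (0.93). Car14 overlaps Aph1a, and Pvalb and Kl are the distal tubule genes named above.

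With all libraries the difference passed for a set that overlapped this one in part. Lower in cKO were Krt20 (-5.02), Havcr1 (-4.14), Serpina10 (-3.37), Akr1b8 (-3.18), Cbr3 (-3.14), Sprr2g (-3.10), Spp1 (-3.00), Fgg (-2.96), Tnfrsf12a (-2.94), Fgb (-2.74), Sox9 (-2.40), Hmox1 (-2.34), Lgals3 (-2.24), Nrg1 (-2.10), Gtse1 (-2.03), S100a10 (-1.62), Mlkl (-1.50), Acsl4 (-1.35), Tnfrsf1a (-1.11) and Bcl2l1 (-0.70). Higher in cKO were Inmt (4.52), Slc12a3 (3.07), Ighv1-12 (2.90), Pvalb (2.69), Pzp (2.67), Ces1e (2.50), Car14 (2.36), Slc22a22 (2.25), Acsm2 (2.15), Acsm5 (1.80), Cyp4b1 (1.65), Macrod2 (1.43) and Kl (1.38).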

How the results depend on the processing

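The comparison of all 7 cKO libraries gave 3 calls, and 12 with no filter on low values, 5 under median-of-ratios scaling, 1 under quantile normalization, 874 with array weights and 0 when the cKO libraries were fitted alone. Leaving out 1 library gave 0 to 286 calls, and leaving out cisplatin replicates 1 and 4 together gave 158. Without cisplatin replicate 4, the 286 calls became 1714 with array weights and 188 when the cKO libraries were fitted alone, and 76 to 250 when a further library was left out. The difference of the responses passed for 617 genes with all libraries, for 255 with no filter and 3429 with array weights, and for 85 to 2242 when 1 library was left out. Without cKO cisplatin replicate 4 it passed for 331 genes, for 54 with no filter and 3572 with array weights, and for 13 to 1756 when a further library was left out. The omission of WT libraries was added after the data were seen. The cause of these movements was not tested. The Ripk4 difference passed only with array weights, at 0.69 on the log2 scale with all cisplatin libraries and 0.87 without replicate 4. The share of called genes in which replicate 4 lay within the untreated range was 36.4%, where that of all genes was 37.1%. The share of called genes stayed between 31.4% and 41.9%. None of the named genes reversed under these alternatives, but many calls were lost. Over the named genes and the alternatives, a result without replicate 4 stayed on its side of the threshold 895 times, lost its call 209 times and gained a call 12 times. The 895 include genes not called at the outset, which had no call to lose, and the 5 genes that prompted the omission. A difference of responses without replicate 4 stayed 161 times and lost its call 79 times. The call of Ctxn3 without replicate 4 was lost in 11 of 14 alternatives. For the difference without replicate 4, the call was lost in 12 of 20 for Slc22a22, 11 of 20 for Havcr1 and 10 of 20 for Lcn2 and Car14. With all libraries it was lost in 15 of 22 for Pzp, 13 of 22 for Cbr3 and 12 of 22 for Havcr1. No paired analysis was possible because the labels carry no replicate numbers. Steps between low values were whole multiples for too few genes to recover counts, so no count test was run.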
